A study of Mus musculus with 2 samples.

Results

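The 42 genes described here encode the machinery of DNA replication (17 S phase genes) and of chromosome segregation (25 mitosis genes). They were listed by symbol from textbook roles, and all 42 of the 42 symbols were found among the 32285 genes of the feature tables. Cells prepare for S phase by loading MCM helicases onto replication origins through Cdc6 and Cdt1, and then fire those origins and copy the DNA with a supply of deoxynucleotides. Mitosis genes are transcribed later, through G2, and their products condense chromosomes, build the spindle, check kinetochore attachment and trigger anaphase. Mouse embryonic stem cells divide rapidly, with short gap phases and a large share of cells in S phase.

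The cells were of the R1 mouse embryonic stem cell line, grown in N2B27 medium for 72 hours in both conditions. LB cultures received LIF and BMP4 on gelatin. LBPXRS cultures received LIF and BMP4 with PD0325901 (a MEK inhibitor), Xav939 (a tankyrase inhibitor), Resorcyclic lactone and SB431542 (an inhibitor of activin and NODAL receptors) on fibronectin. The effects of the added compounds and of the substrate cannot be told apart. There was 1 library per condition, so a difference between conditions compares 2 libraries, a difference between groups of LB cells lies within 1 library, and no p-value or standard error is given.

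The recovery target in the labels was 5000 cells per sample, and the matrices hold 2008 LB and 3111 LBPXRS barcodes, of which 1783 and 2705 were kept. The kept cells held 45490517 and 51832444 UMIs (unique molecular identifiers, each standing for 1 captured RNA molecule), with medians of 25418 and 19058 per cell. The libraries share 10 barcode sequences. The embryonic stem cell genes Pou5f1 (719 CPM in LB, 990 in LBPXRS, where CPM is UMIs per 1000000), Sox2 (123 and 232), Nanog (75.2 and 177) and Zfp42 (401 and 515) were present in both. Of the 6 fibroblast genes examined, Col1a1 (7.80 and 1.76 CPM), Thy1 (5.25 and 2.74) and Col1a2 (1.01 in LB and 0 in LBPXRS) were low, Col3a1 and Dcn had at most 2 UMIs in a library, and Lum had none. Genes of chromosomes 8 and 11 stood apart between the cultures: the 1162 tested had a median log2 ratio of -0.45, against 0.07 on other chromosomes. This touches 8 of the 42 genes, and its part in their differences was not tested.

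The promoters of these genes carry letters that are read by cell cycle factors: E2F sites in S phase genes, and in mitosis genes the cell cycle homology region (CHR, TTTGAA) with CCAAT boxes. The RefSeq table of mouse promoters (GRCm38.p6, from 250 bases before to 50 after the start) had an entry for 36 of the 42 genes, 15 S phase and 21 mitosis. The CHR letters TTTGAA, searched on both strands, were in 16 of 21 mitosis promoters and 3 of 15 S phase promoters, against 17.9% of all 32851 promoters. CCAAT was in 19 of 21 and 10 of 15, against 37.4% of all. An E2F site, searched as TTTCCCGC, TTTCGCGC, TTTGCCGC or TTTGGCGC, was in 6 of 15 S phase promoters (Cdc6, Cdt1, Mcm3, Mcm5, Mcm6 and Mcm7) and 1 of 21 mitosis promoters (Cdk1), against 2.26% of all. Matches of different motifs may overlap within a promoter. A match is a description of letters, not evidence of a bound site.

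The first 4 promoters below belong to the 2 genes of each arm with the highest phase contrast in LB in the first thinning (both defined further on), and they differ in the motifs they hold. Cdc6 and Cdk1 were added for their motifs, Cdk1 being the mitosis gene with all 3. Capitals mark a motif, in the gene's own direction; a motif on the opposite strand appears as its reverse complement. The windows lie at chr12:24708004-24708303 (+) for Rrm2, chr16:18811923-18812222 (-) for Cdc45, chr2:119618048-119618347 (+) for Nusap1, chr7:122159185-122159484 (+) for Plk1, chr11:98907901-98908200 (+) for Cdc6 and chr10:69352863-69353162 (-) for Cdk1.
Rrm2: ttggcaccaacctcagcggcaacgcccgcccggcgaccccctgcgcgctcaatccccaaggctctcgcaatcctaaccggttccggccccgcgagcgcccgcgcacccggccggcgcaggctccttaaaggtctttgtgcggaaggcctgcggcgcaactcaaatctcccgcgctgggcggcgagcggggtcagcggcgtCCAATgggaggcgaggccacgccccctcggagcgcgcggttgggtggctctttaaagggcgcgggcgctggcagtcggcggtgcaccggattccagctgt
Cdc45: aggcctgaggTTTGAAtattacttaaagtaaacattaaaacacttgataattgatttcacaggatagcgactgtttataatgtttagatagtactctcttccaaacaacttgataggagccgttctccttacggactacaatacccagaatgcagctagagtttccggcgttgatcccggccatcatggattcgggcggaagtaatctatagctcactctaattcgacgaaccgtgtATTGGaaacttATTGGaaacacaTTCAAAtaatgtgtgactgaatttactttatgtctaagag
Nusap1: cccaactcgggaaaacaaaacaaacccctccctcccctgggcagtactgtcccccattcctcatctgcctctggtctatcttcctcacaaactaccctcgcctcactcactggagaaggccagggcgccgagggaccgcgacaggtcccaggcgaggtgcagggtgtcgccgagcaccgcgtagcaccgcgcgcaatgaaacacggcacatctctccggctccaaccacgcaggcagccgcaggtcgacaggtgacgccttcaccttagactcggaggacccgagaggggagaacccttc
Plk1: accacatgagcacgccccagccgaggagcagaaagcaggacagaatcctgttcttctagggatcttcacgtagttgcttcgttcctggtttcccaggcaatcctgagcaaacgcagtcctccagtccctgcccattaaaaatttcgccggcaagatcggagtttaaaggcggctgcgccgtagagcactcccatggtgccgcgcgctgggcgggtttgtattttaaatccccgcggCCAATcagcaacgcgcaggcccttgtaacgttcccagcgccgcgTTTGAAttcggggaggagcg
Cdc6: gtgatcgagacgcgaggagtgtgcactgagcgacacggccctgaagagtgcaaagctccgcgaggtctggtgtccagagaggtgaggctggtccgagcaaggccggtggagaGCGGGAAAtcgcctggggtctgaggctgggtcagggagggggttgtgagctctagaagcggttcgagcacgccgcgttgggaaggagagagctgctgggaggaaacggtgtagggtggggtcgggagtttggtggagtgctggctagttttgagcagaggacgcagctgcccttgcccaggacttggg
Cdk1: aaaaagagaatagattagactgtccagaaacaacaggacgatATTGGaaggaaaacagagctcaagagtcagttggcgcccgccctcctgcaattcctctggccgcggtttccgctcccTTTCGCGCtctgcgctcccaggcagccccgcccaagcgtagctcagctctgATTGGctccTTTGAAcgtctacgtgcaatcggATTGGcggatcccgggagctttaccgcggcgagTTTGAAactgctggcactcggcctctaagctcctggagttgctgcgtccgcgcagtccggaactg

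Rrm2 has 1 CCAAT at -50 from the start and no CHR or E2F letters in this window. Cdc45, an S phase gene, has CHR letters at -240 and 11 and CCAAT at -13 and -2. Plk1 has CCAAT at -14 and CHR letters at 31, while the Nusap1 window holds none of the 3 motifs. Cdc6 has 1 E2F site at -138. Cdk1 has an E2F site at -131, CHR letters at -71 and -15, and CCAAT at -208, -80 and -48.

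The S phase genes together took 1495 CPM in LB (95% exact Poisson interval 1484 to 1506) and 1180 CPM in LBPXRS (1170 to 1189), and the mitosis genes 2889 (2873 to 2904) and 2600 (2586 to 2613). The 4 mitosis genes on chromosomes 8 and 11 took 856 CPM in LB and 525 in LBPXRS. The 21 elsewhere went the other way, at 2033 (2019 to 2046) and 2074 (2062 to 2087). The 13 S phase genes elsewhere were lower in LBPXRS, at 1111 and 953. In this and what follows, a ratio is LBPXRS over LB on the log2(CPM + 1) scale, centred by subtracting the median of all 7661 genes with at least 10 CPM in either library, which lay at -0.17. By size alone, 20.2% of those genes lay past 1.5-fold with LBPXRS higher, and 17.1% past 1.5-fold with LBPXRS lower. Against that background, 0 of 17 S phase genes were higher and 2 lower (Mcm5 and Rrm1), and 1 of 25 mitosis genes was higher (Ccnb2) and 2 lower (Cenpe and Top2a). With this centring, the share past 1.5-fold was smaller than among all genes in both arms. The median ratio was -0.07 over the S phase genes and 0.03 over the mitosis genes. Without the centring, 7 S phase and 5 mitosis genes were lower and 0 of either arm higher, beside 14.6% of all genes higher and 25% lower. The share of S phase genes that were lower was then above that of all genes, so its place against the background turns with the centring. With TMM factors and no centring, 2 of 17 were lower beside 17.7% of all genes, below the background as with the centring. With no filter on low values, 7 of 17 S phase genes and 5 of 25 mitosis genes (20%) were lower beside 15.7% of 21404 genes. The median subtracted was then only -0.03, so this setting was close to no centring. The pseudocount understates the low genes in that background, so its share is not like that of the filtered genes.

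**Figure D1:**
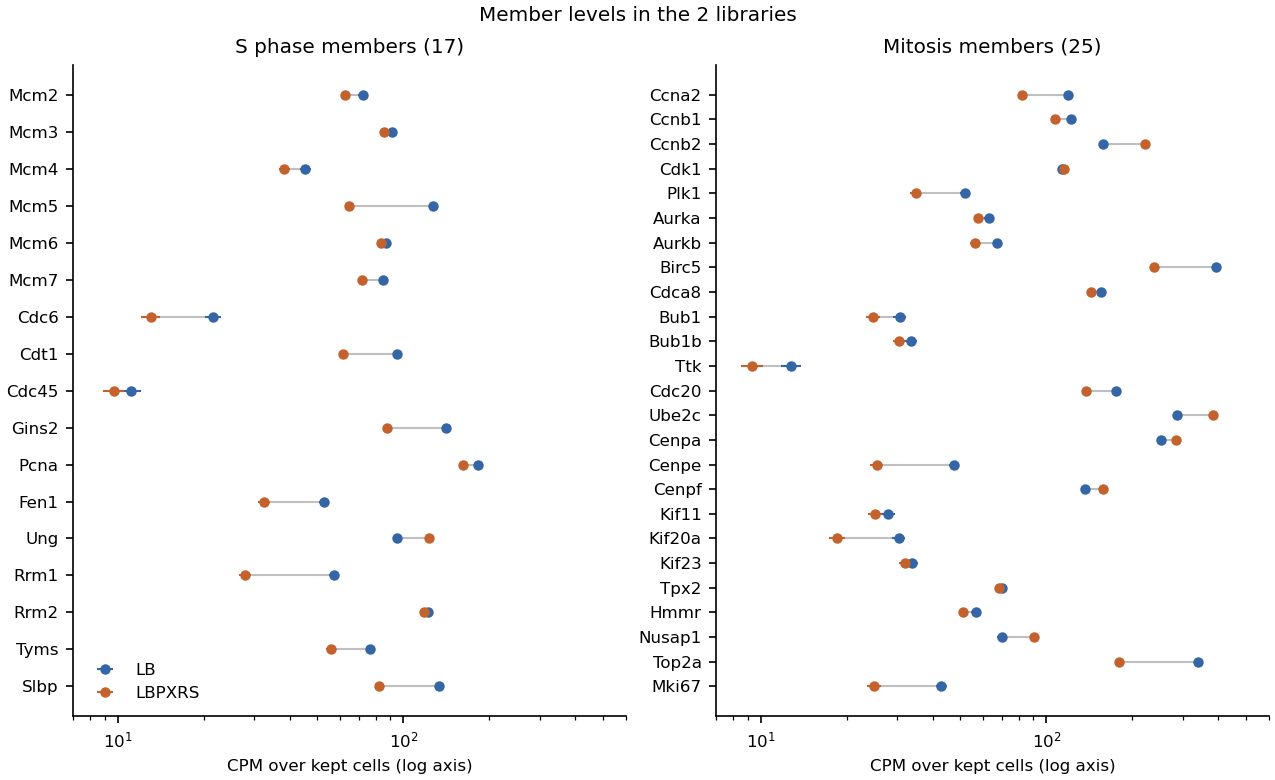
Level of each gene in CPM over kept cells (log axis) in LB (blue) and LBPXRS (orange); bars are exact 95% Poisson intervals, mostly narrower than the points, and grey lines join the libraries. Mcm5, Rrm1, Cenpe and Top2a have the widest gaps with LB higher, and Ccnb2 and Ube2c lie higher in LBPXRS.

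Among the 6 subunits of the MCM helicase, which unwinds DNA at the fork, 5 had nearly the same centred level in both libraries and Mcm5 did not. Mcm5 (chr8:75109569-75128439) was at 126 CPM in LB and 64.5 CPM in LBPXRS, and its ratio was -0.79. Mcm2 was at 71.9 and 62.6 CPM, Mcm3 at 91.1 and 85.5, Mcm4 at 45.4 and 38.4, Mcm6 at 87.1 and 83.5 and Mcm7 at 84.8 and 71.7. Their ratios ran from -0.07 to 0.11. The subunits form a ring with 1 copy of each, so Mcm5 stood apart from its partners, and it is the only one of the 6 on chromosome 8 or 11.

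The 4 origin loading and firing genes had a median ratio of -0.48, and 3 of them lie on chromosomes 8 and 11. Gins2, a subunit of the GINS complex of the active helicase, was at 141 CPM in LB and 87.8 in LBPXRS (-0.51). Cdt1 (95.1 and 61.4 CPM, ratio -0.45) and Cdc6 (21.6 and 13.1, ratio -0.51), which load the MCM ring, were also lower in LBPXRS, short of 1.5-fold. Cdc45, the remaining activator and the one on another chromosome, was at 11.1 and 9.69 CPM, a ratio of -0.01. Taken over the arm, the 4 S phase genes of chromosomes 8 and 11 had a median of -0.51 with 4 of 4 below 0, while the 13 elsewhere had a median of -0.02, 4 above 0 and 9 below.

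At the fork, Pcna, the sliding clamp, was at 183 CPM in LB and 161 in LBPXRS (-0.01). Fen1, which trims Okazaki fragments, was at 52.8 and 32.4 CPM (-0.51). Ung, which removes uracil from DNA, was the S phase gene with the highest ratio, at 95.2 and 123 CPM (0.54).

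Of the nucleotide genes, Rrm1 (chr7:102441695-102469771) and Rrm2 encode the large and small subunits of ribonucleotide reductase. Rrm1 was at 57.2 CPM in LB and 27.9 in LBPXRS, the lowest ratio of the 42 genes at -0.84, whereas Rrm2 was at 122 and 118 (0.13). Rrm1 lies on chromosome 7. Tyms, the thymidylate synthase, was at 76.7 and 55.7 CPM (-0.28), and Slbp, which binds histone mRNA, at 133 and 82.4 (-0.51).

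**Figure D2:**
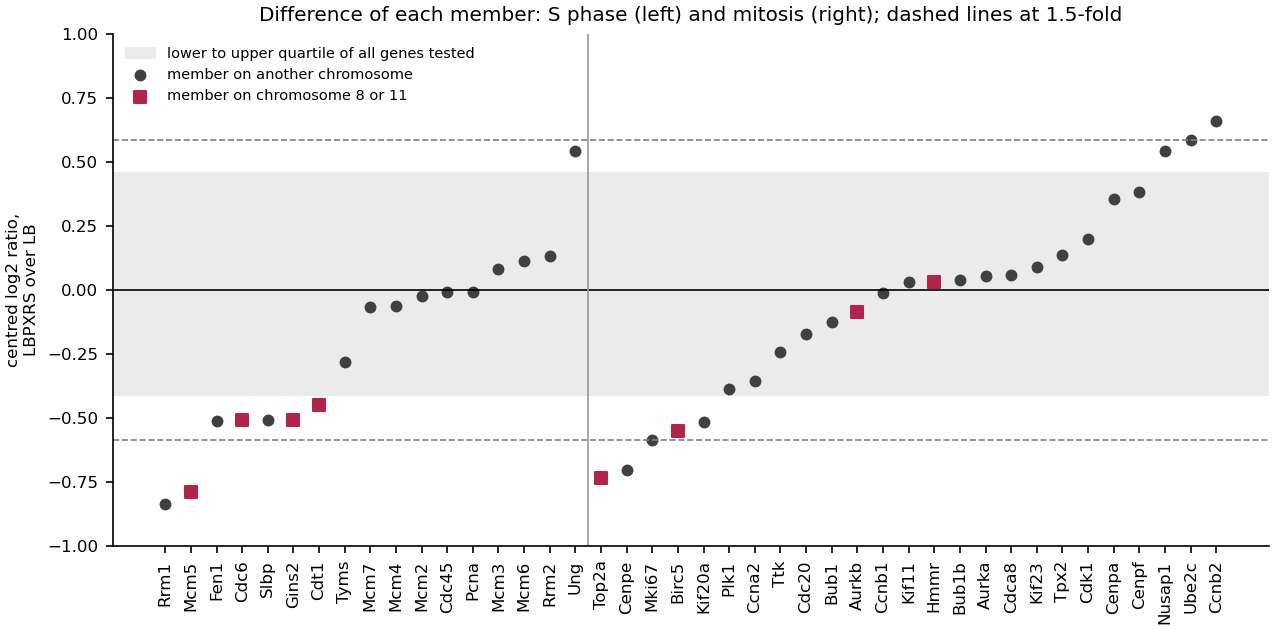
Centred log2 ratio of LBPXRS over LB for each gene, S phase genes left and mitosis genes right, ordered by ratio; red squares are genes of chromosomes 8 and 11, the grey band runs from the lower to the upper quartile of all 7661 genes tested, and dashed lines mark 1.5-fold. Of the 8 red squares, 7 lie below 0, and Rrm1 and Cenpe are the genes of other chromosomes past the lower line.

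The B-type cyclins, which activate Cdk1 for entry into mitosis, had unlike ratios. Ccnb2 (chr9:70407692-70421547) was at 157 CPM in LB and 221 in LBPXRS (0.66), and Ccnb1 at 122 and 107 (-0.01). Cdk1 was at 113 and 116 CPM (0.20). Ccna2, cyclin A2, which acts in S phase and G2, was at 119 and 82.4 (-0.36). Plk1, a kinase of mitotic entry and spindle assembly, was at 51.9 and 34.9 CPM (-0.39), and the centrosomal kinase Aurka at 62.9 and 57.9 (0.05).

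The chromosomal passenger complex corrects kinetochore attachments. Its kinase Aurkb was at 67.3 CPM in LB and 56.0 in LBPXRS (-0.09), its subunit Cdca8 (borealin) at 156 and 144 (0.06), and Birc5 (survivin) at 394 and 238 (-0.55), short of 1.5-fold. Aurkb and Birc5 both lie on chromosome 11. The 3 spindle checkpoint genes had ratios between -0.24 (Ttk, 12.8 and 9.36 CPM) and 0.04 (Bub1b, 33.6 and 30.6), with Bub1 at 30.7 and 24.8 CPM (-0.13). Of the anaphase-promoting complex, whose activity ends mitosis, the activator Cdc20 was at 176 and 138 CPM (-0.17). Its ubiquitin-conjugating enzyme Ube2c was at 287 and 382 CPM (0.58), just short of 1.5-fold.

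At the centromere, Cenpa, the histone H3 variant that marks it, was at 251 CPM in LB and 285 in LBPXRS (0.35), and Cenpf at 137 and 158 (0.38). Cenpe (chr3:135212537-135273611), a kinesin that carries chromosomes to the spindle equator, was at 47.5 and 25.4 CPM (-0.70), opposite to the other 2. Of the spindle proteins, Nusap1, which bundles microtubules, had the highest ratio (69.8 and 90.4 CPM, 0.54) and Kif20a, a kinesin of cytokinesis, the lowest (30.4 and 18.5, -0.52). Kif11, Kif23, Tpx2 and Hmmr were between 0.03 and 0.14. Top2a (chr11:98992943-99024189), the topoisomerase that disentangles sister DNA, was at 339 and 180 CPM (-0.73), and Mki67, which coats mitotic chromosomes, at 42.9 and 24.98 (-0.58, also just short of 1.5-fold).

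Further genes of both pathways were counted the same way. Of 49 other S phase genes tested, 4 were at least 1.5-fold higher in LBPXRS (E2f1, Uhrf1, Chaf1b and Pola1) and 3 lower (Gins4, Rfc3 and Dscc1), with a median of 0.08. E2f1, a transcription factor of S phase entry, was at 24.7 CPM in LB and 48.2 in LBPXRS (1.11). Of 52 other mitosis genes tested, 5 were higher and 6 lower, with a median of 0.01. With this centring, the shares higher and lower were 8.16% and 6.12% for S phase and 9.62% and 11.5% for mitosis. All were below the 20.2% higher and 17.1% lower of all genes. Mybl2, a transcription factor of the complex that binds promoters of mitosis genes, was at 190 and 583 CPM (1.79), Kif14 at 6.05 and 10.7, Spc24, a kinetochore protein, at 133 and 220, and Cdca3 at 202 and 290. The lowest were G2e3 (25.5 and 12.3 CPM), Pttg1 or securin (148 and 77.0), Tubb4b (279 and 147) and Melk (32.3 and 17.8). Gins4 lies on chromosome 8 and Pttg1 on chromosome 11. On these 2 chromosomes, 9 of 9 other genes tested were below 0 (median -0.46), against 36 of 92 elsewhere (median 0.07). Kif14 and Dscc1 reached 10 CPM in 1 library only, the one in which they were higher, so they could be counted in 1 direction only. Mybl2 differed more between the libraries than any of the 42 genes, the lists having been drawn up with earlier results known.

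To place cells in the cycle at equal depth, each kept cell was thinned to 10000 UMIs and its S phase and mitosis UMIs were summed; 117 LB and 196 LBPXRS cells were too shallow. The median cell held 14 S phase and 26 mitosis UMIs in LB, and 11 and 21 in LBPXRS. Each sum was divided by the mean of the 2 library means. A cell was S-high where its S value was at least 1 and above its mitosis value, mitosis-high where its mitosis value was at least 1 and not below its S value, and otherwise low in both. These classes are ranges of a score and not stages seen under a microscope, and 17.8% of LB and 18.2% of LBPXRS cells lay within 10% of a cut.

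In LB, 19.8% of 1666 cells were low in both (exact interval 17.9 to 21.8), 43.6% S-high (41.2 to 46.1) and 36.6% mitosis-high (34.2 to 38.9). In LBPXRS, 40.9% of 2509 cells were low in both (39.0 to 42.8), 25.99% S-high (24.3 to 27.7) and 33.1% mitosis-high (31.3 to 35.001). On this scale LBPXRS had more cells low in both, by 21.1 percentage points (18.3 to 23.8), and fewer S-high cells, by 17.7 points (14.7 to 20.6 in size). Mitosis-high cells were 3.43 points fewer (0.488 to 6.40 in size). Without thinning the shares were 20.2, 43.5 and 36.2% in LB and 43.8, 24.0 and 32.1% in LBPXRS.

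These share differences depend on the common scale. Where each library was scaled to its own mean, the S-high shares differed by 0.095 points and the low shares by 0.80 points. Where the LBPXRS sums were divided by the shift of the median gene, the differences were -10.7 points for S-high, 8.70 for low in both and 2.00 for mitosis-high cells. Without the genes of chromosomes 8 and 11 they were -13.6, 10.7 and 2.90 points. With both changes they were -8.47 (-11.5 to -5.49), 2.56 (-0.265 to 5.34) and 5.91 points (2.98 to 8.81), so the interval for low in both then spans 0. The mitosis-high difference turned sign in these last 3 cases. Its interval spans 0 for the median shift alone (-0.96 to 4.92) and without chromosomes 8 and 11 alone (-0.05 to 5.81). With own means it was -0.90 points (-3.85 to 2.03). No direction is given for it. The classes describe summed levels per cell and do not count dividing cells.

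**Figure D3:**
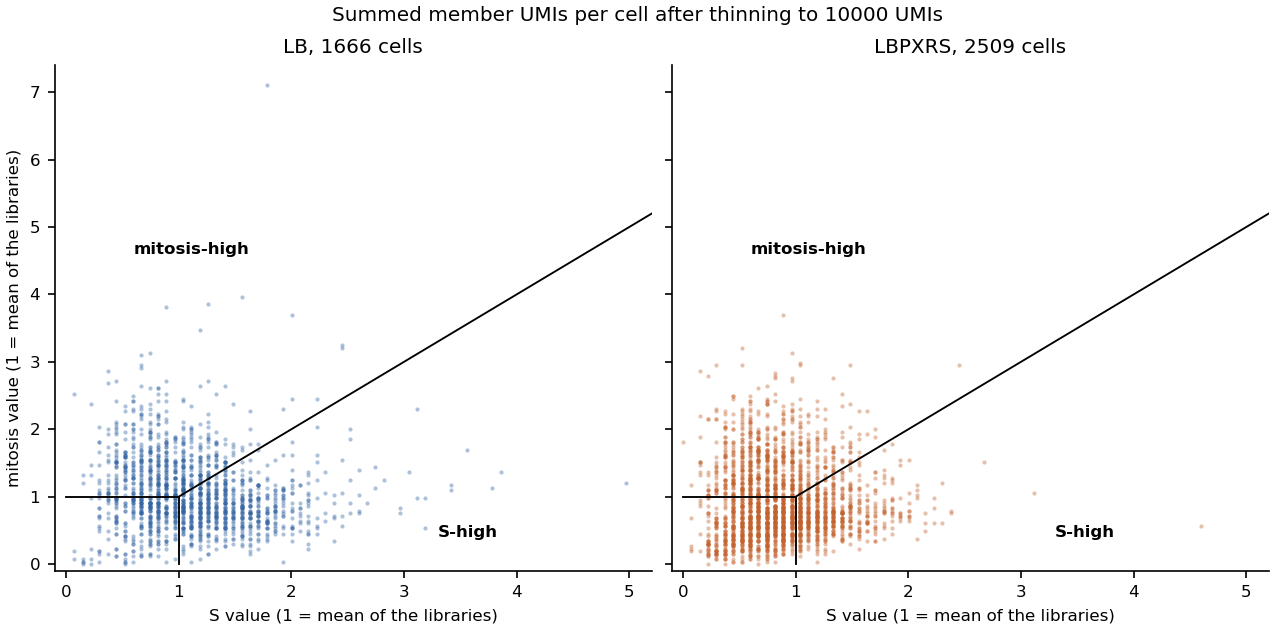
Each point is 1 cell thinned to 10000 UMIs, with its S phase sum (x) and mitosis sum (y) divided by the mean of the library means; lines bound the 3 classes, with cells low in both at the lower left. LBPXRS cells crowd the lower left (40.9% against 19.8% in LB).

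The depth of the cells varied with the class. Before thinning, mitosis-high cells held a median of 28084 UMIs in LB, against 24967 in S-high and 26645 in cells low in both, and 21367, 19091 and 18459 in LBPXRS. The pluripotency gene Pou5f1 had a median of 7 thinned UMIs in each of the 3 LB classes and 9 to 10 in the LBPXRS classes. The median for T, Mixl1, Mesp1, Hand1 and Cdx2 was 0 in every class of both libraries. Scrublet marked 1.21% of low-in-both cells, 0.275% of S-high and 0.985% of mitosis-high cells in LB. The part of free RNA in these sums was not tested.

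The pathway genes outside the 42 give a check on the classes that did not use them. The level in mitosis-high over that in S-high cells was below 1 for 47 of 49 other S phase genes in LB and 40 of 49 in LBPXRS, with medians of 0.796 and 0.854. Among all other genes tested, 49.4% were below 1 in LB and 50.1% in LBPXRS. It was above 1 for 49 of 52 other mitosis genes in LB and 51 of 52 in LBPXRS, with medians of 1.49 and 1.72, beside 50.6% and 49.9% of all other genes.

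How strongly each gene follows the others of its arm was read as its phase contrast: its level in the 25% of cells with the highest sum of the other genes, over that in the 25% with the lowest sum. It is taken within a library, so no scale between libraries is applied, but the level of the sum still enters. A lower sum ranks cells with more counting noise, which pulls a contrast toward 1. The mean S phase sum was 15.2 UMIs in LB and 11.8 in LBPXRS, and the mean mitosis sum 28.2 and 24.8. The part of these levels in the contrasts was not tested. A single thinning left few UMIs for low genes, so means and ranges over 20 thinnings are given. This choice was made after the first thinning was seen. In the first thinning, 10 of 84 contrasts lay outside the range of 20 others. Some would lie outside for any draw, so nothing is read from that count. The 20 thinnings draw on the same cells and show the noise of thinning only. All 42 genes had contrasts above 1 in both libraries in every thinning. Among genes outside the 42, this held for 19.6% of 7556 on the S phase sum and 16.7% of 7562 on the mitosis sum. Within LB alone the shares were 27.8% and 28.2%, and within LBPXRS 34.7% and 37.6%. The 42 were chosen as genes of these phases, so nothing is read from their count.

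The mitosis genes had the stronger contrasts, with a median of 3.16 in LB and 3.55 in LBPXRS, against 2.10 and 1.89 for the S phase genes. Plk1 had the highest in both libraries, at 6.30 (5.16 to 8.19) in LB and 11.9 (8.34 to 14.2) in LBPXRS. Hmmr, a spindle protein, followed in LBPXRS with 7.53 (6.84 to 8.79), against 4.94 (3.98 to 5.78) in LB, and Aurka with 6.31 and 4.96. In LB the next were Nusap1 at 5.66, Cenpe at 5.16 and Cenpf at 5.08. Ccnb2 had the lowest contrast of the mitosis genes in LB, at 1.46, beside 3.68 for Ccnb1. The 2 B-type cyclins thus differed in how they followed the other mitosis genes as well as in their level between the libraries.

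The contrast was higher in LBPXRS for 20 of 25 mitosis genes, and for 10 of them the ranges did not overlap (Ccna2, Ccnb2, Plk1, Birc5, Cdc20, Ube2c, Cenpa, Hmmr, Top2a and Mki67). No mitosis gene had a range wholly below that of LB. Among 7562 other genes ranked on the same mitosis sum, 6.47% had a range wholly above that of LB and 3.62% wholly below. In the first thinning, Plk1 was at 100 CPM in the top 25% of LB cells and 17.8 in the bottom 25%, and at 74.2 and 5.90 in LBPXRS. Top2a was at 453 and 226 CPM in LB and 302 and 89.2 in LBPXRS, and Mki67 at 68.8 and 20.7, and 45.6 and 7.66. These 3 genes were lower in LBPXRS at both ends, and by a larger factor at the bottom. Ube2c, Cenpa and Ccnb2 were higher in LBPXRS at both ends, and by a larger factor at the top: Ube2c was at 484 and 131 CPM in LB and 688 and 145 in LBPXRS, and Cenpa at 376 and 134, and 474 and 141. The summed mitosis level per thinned cell was also more spread in LBPXRS, from 6 at the 5th percentile to 52 at the 95th, against 9 to 53 in LB. The S phase sum ran from 4 to 21 in LBPXRS against 6 to 27 in LB (ratios of 5.25 and 4.50), at means of 11.8 and 15.2 UMIs. Counting noise alone raises such a ratio at a lower mean, so no difference in spread is read from it.

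The contrasts of the S phase genes went the other way from those of the mitosis genes. The contrast was higher in LBPXRS for 3 of 17, and 5 had a range wholly below that of LB (Mcm4, Cdc6, Ung, Rrm2 and Slbp) and 0 above. Among 7556 other genes ranked on the S phase sum, 2.14% were wholly below and 4.47% above. Rrm2 was at 3.13 (2.67 to 3.60) in LB and 2.08 (1.91 to 2.29) in LBPXRS. Cdc6 had the highest contrast of the arm in LB, at 4.15 (3.395 to 4.94), against 2.64 (2.18 to 3.20) in LBPXRS. In the first thinning it gave 2.72 and 3.29, the reverse order, on 54 and 42 UMIs in the bottom cells. Gins2 was lowest in LB at 1.51, near Cdt1 at 1.52.

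**Figure D4:**
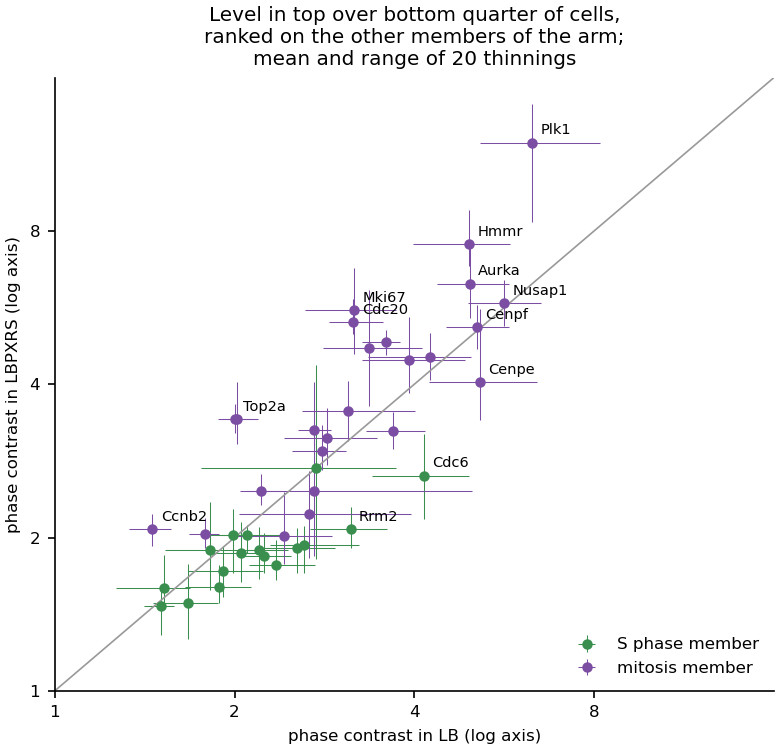
Phase contrast of each gene in LB (x) and LBPXRS (y), both log axes; points are means and bars the range over 20 thinnings, green for S phase and purple for mitosis genes, and the grey line marks equal contrast. Plk1 lies highest at 6.30 and 11.9, and 20 of 25 purple points are above the line while 14 of 17 green points are on or below it.

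LB cultures held cells with markers of several states, and the phase classes were compared between LB cells with at least 2 thinned UMIs of a marker and all other LB cells. A cell can be positive for several markers, and marker and class come from the same cells of 1 library. Positive cells numbered 134 for Klf4, 76 for Esrrb, 765 for Zfp42 and 336 for Nanog (naive pluripotency), and 385 for Dnmt3b and 915 for Utf1 (formative). They numbered 285 for T, 57 for Mixl1 and 119 for Mesp1 (primitive streak), and 211 for Hand1 and 33 for Foxf1 (mesoderm). Of the 2 genes listed as trophoblast markers, Cdx2 had 159 and Elf5 had 0. Among Cdx2-positive cells, 31.4% were also T-positive and 48.4% Hand1-positive, and Elf5 had 0 UMIs in LB. The Cdx2-positive cells are therefore not named trophoblast. In all kept LBPXRS cells T had 3 UMIs, Cdx2 had 1 and Hand1 had none.

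Zfp42-positive and Klf4-positive cells were more often low in both gene sums, and Dnmt3b-, Hand1- and Cdx2-positive cells less often; with the cut at 0.75 of the mean the difference turned sign for Zfp42 (-0.59 points) and was 0.80 points for Klf4. Zfp42-positive cells were low in both in 23.7% (exact interval 20.7 to 26.8), against 16.54% of Zfp42-negative cells. Klf4-positive cells were low in 27.6% (20.2 to 36.0) against 19.1%. Of the Klf4-positive cells, 96.3% were also Zfp42-positive, so these 2 markers are not independent. Dnmt3b-positive cells were low in 11.7% (8.65 to 15.3) against 22.2%, Hand1-positive cells in 11.8% (7.82 to 16.99) against 21.0%, and Cdx2-positive cells in 11.3% (6.85 to 17.3) against 20.7%. Over 20 thinnings the mean difference was 6.58 points for Zfp42 (4.004 to 9.96), -7.80 for Dnmt3b (-10.2 to -4.67), -6.51 for Hand1 (-8.74 to -3.98) and -8.77 for Cdx2 (-11.9 to -4.13). For Mixl1 it was -8.98 (-14.5 to -2.56), on 57 positive cells, but with 1 UMI as the minimum (114 cells) the difference was -6.20 points and its counting interval spans 0 (-11.8 to 1.597). For Klf4 it was 6.00 points and above 0 in 19 of 20; among the settings tried, Klf4 ran from 0.80 points at the lower cut to 15.2 at the higher. Utf1, also listed as formative, went against Dnmt3b over thinnings, at 2.68 points (0.318 to 4.83), but its counting interval spans 0 (2.37, -1.50 to 6.16). Of Utf1-positive cells, 74.9% were also Zfp42-positive and 28.5% Dnmt3b-positive, and 86.6% of Klf4-positive cells were Utf1-positive. Utf1 thus did not set a formative group apart from the naive markers here. Esrrb was at 4.67 points, above 0 in 18 of 20, and Mesp1 at 0.27, above 0 in 12 of 20 (21.0% against 19.7% in the first thinning). For Nanog it was 0.80 points (-3.84 to 3.95). No direction is given for Mesp1 or Nanog.

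**Figure D5:**
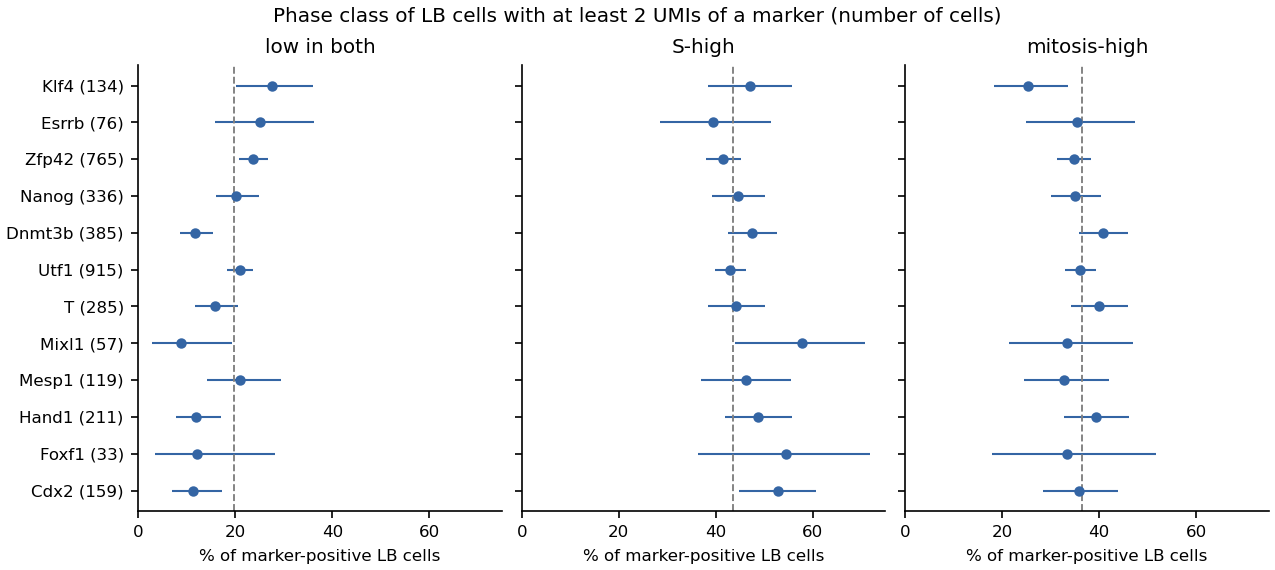
Share of LB cells in each phase class among cells with at least 2 UMIs of a marker (number of cells in brackets), 1 thinning, with exact 95% binomial intervals; the dashed line is the share among all 1666 LB cells. Dnmt3b, Hand1 and Cdx2 lie left of the line for low in both, and Klf4 lies left of it for mitosis-high.

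Dnmt3b-positive cells were mitosis-high in 40.8% against 35.3% of Dnmt3b-negative cells, a difference of 5.49 points (0.013 to 11.1) with a mean over thinnings of 5.70 (1.248 to 10.3). With 1 UMI as the minimum it was 4.28 points, with an interval that spans 0 (-0.37 to 8.94). Utf1, also listed as formative, went the other way, at -1.08 points (-5.74 to 3.55) with a mean over thinnings of -3.76 (-7.00 to -1.06). T-positive cells, which carry the primitive streak factor Brachyury, were mitosis-high in 40.0% (34.3 to 45.9) against 35.8% of T-negative cells. That difference of 4.16 points has a counting interval that spans 0 (-1.93 to 10.5), while its mean over 20 thinnings was 6.13 points (2.69 to 9.51) (both T-positive minus T-negative). No direction is given for S-high cells, at 0.69 points in the first thinning (counting interval -5.54 to 7.05) and -3.38 over the others (-7.20 to -0.64). For the other streak markers the mean mitosis-high difference was -5.06 points for Mesp1 (-8.31 to -2.08) and -3.23 for Mixl1 (-13.4 to 3.34). The counting intervals span 0 for both and overlap that of T, 38.7% of Mesp1-positive cells were also T-positive, and the difference between markers was not tested. The median depth of T-positive cells before thinning was 23526 UMIs, against 26687 in T-negative cells. Ccnb2 was at 216 CPM in T-positive and 142 in T-negative cells, a ratio of 1.52 (1.39 to 1.67). Cenpf had a ratio of 1.40 (1.26 to 1.55) and Ccna2 of 1.36 (1.22 to 1.51), while Top2a was at 308 and 343 CPM, a ratio of 0.90 (0.836 to 0.967). Of the 25 mitosis genes, 12 had an interval wholly above 1 and 1 wholly below it, beside 27.7% above and 18.2% below among the 7014 genes with at least 10 CPM in LB, read from the same thinned cells.

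Klf4-positive cells were mitosis-high in 25.4% (18.3 to 33.6) against 37.5%, a difference of -12.2 points (-19.2 to -3.83) with a mean over thinnings of -8.37 (-13.7 to -2.99). With 1 UMI as the minimum (361 cells) it was -5.29 points, and the interval spans 0 (-10.6 to 0.33). Over thinnings the mean was also below 0 for Zfp42 (-4.52 points, -7.62 to -1.95) and Nanog (-3.33, -5.87 to 2.99), and above 0 for Esrrb (3.52, -5.74 to 12.8), which was at -1.08 in the first thinning. The counting intervals of these 3 markers span 0. Of the 25 mitosis genes, 12 had an interval wholly below 1 and 0 above, beside 22.2% and 9.78% of all 7014 genes. Mki67 was at 23.1 CPM in Klf4-positive and 45.7 in Klf4-negative cells, a ratio of 0.51 (0.341 to 0.725), on 31 UMIs in the positive cells. Top2a was at 351 and 336 CPM (1.04, 0.948 to 1.15). No Klf4-positive cell was T-positive.

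Gins2 was at 215 CPM in Hand1-positive and 138 in Hand1-negative cells, a ratio of 1.55 (1.40 to 1.72), and at 195 and 143 with and without Cdx2 (1.36, 1.21 to 1.54). The groups share cells: 77 cells were positive for both, 48.4% of the Cdx2-positive and 36.5% of the Hand1-positive cells. Of the 17 S phase genes, 5 had an interval wholly above 1 with Hand1 and 2 wholly below, Ung (0.72, 0.609 to 0.853) and Cdt1 (0.79, 0.665 to 0.930), and of the 25 mitosis genes 6 and 4. Among all 7014 genes 33.6% were above and 16.5% below, so the counts above 1 were not higher than the background. Mki67 (1.46, 1.20 to 1.77) and Birc5 (1.27, 1.19 to 1.36) were higher with Hand1, and Top2a lower, at 278 against 345 CPM (0.81, 0.738 to 0.877). Cdx2-positive cells were more often S-high, by 10.2 points (counting interval 2.03 to 18.2; mean over thinnings 6.90, 1.75 to 14.3), and so were the 57 Mixl1-positive cells, by 14.8 points (1.62 to 26.9; mean 12.2, 6.08 to 18.6). For Hand1 the counting interval spans 0 (5.93 points, -1.21 to 13.1; mean over thinnings 7.35, 0.647 to 11.6).

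The choice of LB cells moved some of the differences between the libraries. Set against the LB cells with Klf4 or Esrrb only, the S phase median was -0.22 in place of -0.07, Cenpe was at -0.26 in place of -0.70, and Top2a at -0.94 in place of -0.73. Ccnb2 was then at 0.74 and Rrm1 at -0.90.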

How the data were processed

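R1 cells were captured in 2 droplet libraries with 10x 3′ chemistry, 1 for each culture condition. The deposited matrices hold counts of UMIs per gene and barcode, made by the authors with Cell Ranger 4.0.0 on mm10, per the submitters' processing notes. The annotation and the settings of cell calling are not given in the sources used here. Barcodes with fewer than 1000 detected genes or over 10% mitochondrial UMIs were left out. UMIs were summed over kept cells and scaled to 1000000 (CPM). A ratio is the log2 of LBPXRS over LB after a pseudocount of 1 was added to each CPM, which understates low genes; its median over all genes that reached 10 CPM in a library was subtracted. Phase classes and contrasts used cells randomly thinned to 10000 UMIs, without shallower cells. Thinning was repeated 20 times with other random draws. The shares of all genes beside the marker and contrast counts come from the same thinned cells and were added after seeing the data. Exact Poisson, exact binomial (Clopper-Pearson) and Newcombe intervals at 95% cover counting error only. With 1 library per condition there was no replicate and no test. Scrublet in scanpy 1.11.5 marked 12 LB cells (0.673%) and 14 LBPXRS cells (0.518%), which were kept; leaving them out was an alternative. TMM scaling (edgeR 4.0.16) was another. Chromosomes and coordinates come from GENCODE vM21 on GRCm38, the assembly that mm10 is made from. The scripts were tested on simulated data.

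The members, the lists of further genes and the markers were chosen with earlier results of these data known. All 42 members could be named, and of the further pathway genes at most the 4 largest differences in each direction of each arm. Promoters printed were those of the 2 members per arm with the highest phase contrast in LB that had an entry, plus 2 chosen later for their motifs.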

Additional observations from a re-analysis of the deposited data

Results flagged for a closer look

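The barcodes left out of the comparison, for few detected genes or a high mitochondrial share, also held RNA of these genes, together at a higher share of their UMIs than the kept cells. In the 225 LB barcodes left out, the S phase genes took 2518 CPM (exact Poisson interval 2404 to 2635) against 1495 in kept cells, and the mitosis genes 3485 (3352 to 3622) against 2889. In the 406 LBPXRS barcodes left out they took 2175 CPM (2069 to 2285) against 1180, and 3662 (3524 to 3804) against 2600. These barcodes are shallow, with median depths of 1801 and 1043 UMIs. The 126 LB barcodes with fewer than 1000 genes had 1687 CPM of S phase genes (1476 to 1919) and 3038 of mitosis genes (2753 to 3344), intervals that hold the kept values. The other 99 LB barcodes had 2706 (2576 to 2841) and 3587 (3437 to 3741). In LBPXRS the 341 barcodes with fewer than 1000 genes had 2610 (2444 to 2785) and 4624 (4403 to 4855), and the other 65 had 1767 (1636 to 1907) and 2761 (2596 to 2934), the last interval just holding the kept 2600. The kept cells under 0.5% mitochondrial UMIs, 32 in LB and 168 in LBPXRS, had 2578 and 1300 CPM of S phase genes and 3317 and 2639 (2571 to 2709) CPM of mitosis genes, the last interval holding the kept value. No cause was tested.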

How the results depend on the processing

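No paired analysis was possible because each condition has 1 library, and for the same reason no replicate could be left out. The counts of genes past 1.5-fold depend on the centring and on the threshold, the calls being few and near it. Without centring, 7 S phase genes were lower, 0 mitosis genes higher and 5 lower, with medians of -0.24 and -0.14. With no filter on low values the counts were also 7, 0 and 5, with medians of -0.21 and -0.11. The background was then 21404 genes, 11.6% higher and 15.7% lower, and the median subtracted was only -0.03. At 2-fold no gene was called in those 3 counts (0, 0 and 0), beside 10.4% of all genes higher and 7.61% lower. Without genes of chromosomes 8, 11 and Y, 1 S phase gene was lower and 2 other S phase genes were higher (15.6% and 19.8% of all genes). Mitosis genes higher numbered 2 with a pseudocount of 0.1 (20.9% of all genes), with all deposited barcodes (20.1%), and against LB cells with Klf4 or Esrrb (18.4%; S phase median -0.22). A mean over cells gave 4 mitosis genes lower, near the 17.05% of all genes, and an S phase median of -0.14.

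For the phase classes, low in both differed by 17.7 points at 5000 UMIs, 14.1 with the cut at 0.75 of the mean, 10.7 without chromosomes 8 and 11 and 0.80 with own means; S-high by -13.1, -11.4, -13.6 and 0.095 (sign turned), and mitosis-high by 2.90 without chromosomes 8 and 11 (sign turned). The median-shift scalings were chosen after seeing the data: 8.70, -10.7 and 2.00, and with chromosomes 8 and 11 also left out 2.56, -8.47 and 5.91, the mitosis-high sign turned in both. The 20 repeat thinnings, also added later, gave 19.4 to 22.9 for low in both, -20.2 to -15.1 for S-high and -4.79 to -1.41 for mitosis-high.

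Among marker-positive LB cells the low-in-both difference was, with the cut at 0.75, -2.56 for Cdx2, -4.35 for Dnmt3b, -3.90 for Hand1, 2.90 for T and -0.59 for Zfp42 (sign turned). Klf4 was at 0.80 there, 15.2 with the higher cut and 3.13 with another random draw, which gave -5.02 for Dnmt3b. For T it was -13.2 with the higher cut tried, 0.18 at 5000 UMIs and 0.0038 without cells marked by Scrublet, so no direction is given for T in that class. Beyond scaling, no cause was tested. Low genes such as Cdc45 and Ttk hold too few UMIs at 10000 per cell for a precise contrast.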
